A study of Mus musculus with 4 samples.

Results

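Structural and small nuclear or nucleolar RNAs were examined in thioglycollate-elicited peritoneal macrophages of mice given either BSA or AGEs, the latter being BSA modified with dehydroascorbic acid (DHA). The rule that chose the RNAs used annotation and no measured value: it took every row of the deposited gene table whose gene type was snoRNA, snRNA, signal recognition particle RNA, RNase P RNA, RNase MRP RNA, telomerase RNA, small Cajal body guide RNA or another small non-coding RNA of the same kind, together with Rn7s1, Rn7s2 and Rpph1. This gave 385 of the 15575 rows. They were 124 box C/D snoRNAs, 113 H/ACA snoRNAs, 22 small Cajal body RNAs (scaRNAs), 5 U3 snoRNAs, 15 snoRNAs described in other terms, 99 spliceosomal snRNAs (51 U6, 30 U1, 10 U2, 3 U5, 2 U4, and 1 each of U11, U12 and U6atac), the 2 7SL RNA genes Rn7s1 and Rn7s2, and 1 row each for 7SK RNA (Rn7sk), RNase P RNA (Rpph1), RNase MRP RNA (Rmrp), telomerase RNA (Terc) and the Malat1-derived RNA Mascrna. Y RNAs and vault RNAs were not analysed here.

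Male C57BL/6 mice of 8 to 12 weeks were given 10 mg/kg/day of either protein by the intravenous route, beginning 24 h ahead of thioglycollate, a sterile irritant that draws monocytes into the peritoneal cavity, and all mice in both groups received thioglycollate. The AGEs were made with 25 mM DHA. After 72 h the peritoneal cells that adhered to plastic within 2 h were collected as macrophages, and 2 libraries were made per group after ribosomal RNA removal. The study called them biological duplicates, but whether a library came from 1 mouse or a pool was not stated. Differences are therefore measured against the spread between 2 libraries, an exact permutation test of 2 against 2 cannot give a p below 0.333, and the precision of any single RNA is limited.

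The RNAs studied here do not encode proteins but act inside ribonucleoprotein particles. 7SL RNA is the scaffold of the signal recognition particle, which takes nascent secretory and membrane proteins to the endoplasmic reticulum. 7SK RNA holds the transcription elongation factor P-TEFb in an inactive state, RNase P trims the 5′ ends of tRNA precursors, RNase MRP takes part in ribosomal RNA maturation, and telomerase RNA is the template for telomere repeats. The U snRNAs form the spliceosome, box C/D and H/ACA snoRNAs guide methylation and pseudouridylation of ribosomal RNA, U3 is needed for cleavage of the ribosomal RNA precursor, and scaRNAs guide the same modifications on snRNAs. 7SL, 7SK, RNase P, RNase MRP and U6 RNAs are made by RNA polymerase III and carry no poly(A) tail, so a library of total RNA can show them where a poly(A)-selected one would not.

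The sequences of the RNAs on which the results turn are given first. All come from GENCODE M21 on GRCm38, except the promoter window from RefSeq on GRCm38.p6. Rpph1 was the RNA with the smallest p among those tested; its row runs from 50807447 to 50807771 on the minus strand of chromosome 14 and the stretch shown is bases 1 to 300 of 319 (chr14:50807468-50807767). Its first 102 bases, in capitals, lie inside a 300-base window (chr14:50807666-50807965, plus strand) around the start of Parp2, a gene for a DNA damage-sensing poly(ADP-ribose) polymerase that is read in the opposite direction from the same stretch. In that window the capitals mark TATAA, 29 to 33 bases before the Rpph1 start, and ATTTGCAT, whose other strand reads ATGCAAAT, 93 to 100 bases before it. TATAA or its other strand TTATA was found in 8171 of 32851 promoter windows of the same length (24.9%), and the octamer in 570 (1.74%); the motifs do not overlap each other.
Rpph1: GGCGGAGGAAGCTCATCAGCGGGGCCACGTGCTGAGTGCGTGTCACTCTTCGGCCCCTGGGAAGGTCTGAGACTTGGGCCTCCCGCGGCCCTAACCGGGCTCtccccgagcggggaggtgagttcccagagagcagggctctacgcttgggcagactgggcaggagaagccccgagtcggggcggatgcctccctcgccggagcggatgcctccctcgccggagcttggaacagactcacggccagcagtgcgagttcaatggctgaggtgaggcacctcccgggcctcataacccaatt
Parp2 and Rpph1 window: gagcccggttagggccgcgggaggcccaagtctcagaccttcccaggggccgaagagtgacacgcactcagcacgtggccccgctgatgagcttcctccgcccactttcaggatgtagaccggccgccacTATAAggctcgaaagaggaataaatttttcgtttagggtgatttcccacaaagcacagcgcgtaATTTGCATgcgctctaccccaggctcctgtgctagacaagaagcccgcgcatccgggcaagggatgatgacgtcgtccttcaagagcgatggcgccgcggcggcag

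Other RNAs that took many reads, or that differed most between libraries, included Rmrp, U1, U3 and Snord17. Rmrp (chr4:43492788-43493058, minus strand) is shown whole.
Rmrp: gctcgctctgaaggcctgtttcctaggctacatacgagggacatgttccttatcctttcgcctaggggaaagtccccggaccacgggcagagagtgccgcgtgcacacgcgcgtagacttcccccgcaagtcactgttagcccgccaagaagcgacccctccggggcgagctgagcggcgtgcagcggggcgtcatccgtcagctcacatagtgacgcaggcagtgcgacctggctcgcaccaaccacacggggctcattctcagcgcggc

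For U1, Rnu1a1 (chr11:87422867-87423030, plus strand) is shown, with capitals on the stretch that pairs with the 5′ splice site. In U3 (Rnu3b1, chr11:87443237-87443451, plus strand) and Snord17 (chr2:144265979-144266216, minus strand) the capitals mark the core of a C box and the D box. In the H/ACA snoRNA Snora73a (chr4:132352775-132352979, minus strand) they mark the ACA box. Scarna2, the RNA past the study's threshold, is shown as bases 265 to 414 of the 414-base annotated RNA (chr3:108554338-108554487, minus strand), with capitals on the 61 bases that its row in the table covers.
Rnu1a1: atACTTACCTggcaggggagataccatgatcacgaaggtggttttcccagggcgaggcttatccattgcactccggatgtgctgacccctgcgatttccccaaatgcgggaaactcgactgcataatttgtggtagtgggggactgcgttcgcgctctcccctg
Rnu3b1: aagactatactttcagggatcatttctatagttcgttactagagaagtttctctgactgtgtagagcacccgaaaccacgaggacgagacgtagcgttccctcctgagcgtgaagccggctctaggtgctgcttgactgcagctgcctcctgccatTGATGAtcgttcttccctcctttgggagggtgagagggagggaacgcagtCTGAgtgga
Snord17: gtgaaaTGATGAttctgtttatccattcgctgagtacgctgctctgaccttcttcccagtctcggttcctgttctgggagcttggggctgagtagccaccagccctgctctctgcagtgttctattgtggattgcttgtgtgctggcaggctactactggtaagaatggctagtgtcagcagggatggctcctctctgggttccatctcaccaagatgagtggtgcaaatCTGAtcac
Snora73a: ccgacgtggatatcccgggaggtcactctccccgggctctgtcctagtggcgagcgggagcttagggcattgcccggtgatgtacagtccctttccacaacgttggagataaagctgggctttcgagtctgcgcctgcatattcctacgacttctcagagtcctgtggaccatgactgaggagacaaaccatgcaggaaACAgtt
Scarna2: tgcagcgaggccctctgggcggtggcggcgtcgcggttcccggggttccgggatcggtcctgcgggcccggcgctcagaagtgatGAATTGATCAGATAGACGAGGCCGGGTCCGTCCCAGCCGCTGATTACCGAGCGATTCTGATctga

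The table held between 17773088 and 24472926 counts per library. The small RNAs took 8.74% and 11.4% of all counts in BSA replicates 1 and 2, and 11% and 11.2% in AGEs replicates 1 and 2. The AGEs libraries lay between the BSA libraries, so the groups overlapped (10.1 ± 1.86% in BSA and 11.1 ± 0.0757% in AGEs, SD, n = 2; exact permutation test, two-sided, p = 1.0). On the TPM scale, which divides each count by the length of the RNA and sets every library to the same total, they took 46.6% and 54.3% in BSA and 53.2% and 53.4% in AGEs. A large part of TPM in every library thus belonged to RNAs that are short and are not translated.

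7SL RNA made up most of this share. Rn7s1 and Rn7s2 together accounted for 7.09% and 9.65% of counts with BSA and 9.12% and 9.13% with AGEs, and 38.0% and 46.2% against 44.0% and 44.0% of TPM. By mean TPM, Rn7s2, Rn7s1, Rn7sk, Rpph1 and Rmrp held ranks 1 to 5 among all rows, while by CPM, the count scaled to library size with no regard to length, they ranked 1, 2, 10, 16 and 19. These 5 rows held 99.2 to 99.5% of all counts of the 385 RNAs, and the other 380 together took only 0.0557 to 0.0799% of the counts of a library. With 7SL left out of both parts of the fraction, the remaining RNAs took 1.77% and 1.90% of counts in BSA and 2.12% and 2.22% in AGEs. Here both AGEs libraries were above both BSA libraries, with means of 1.83 ± 0.0907% and 2.17 ± 0.0752% (SD, n = 2), at the smallest p that an exact permutation test allows (0.333). The same quantity on the TPM scale was 13.8% and 15.0% against 16.3% and 16.8%, again without overlap and with p = 0.333 in the exact permutation test. Of all counts, Rpph1 alone took 0.452% and 0.435% in BSA and 0.553% and 0.658% in AGEs. The other 380 RNAs took a mean of 0.0664% in BSA and 0.0678% in AGEs. This share is thus in part the Rpph1 result given below, not a separate one.

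**Figure D1:**
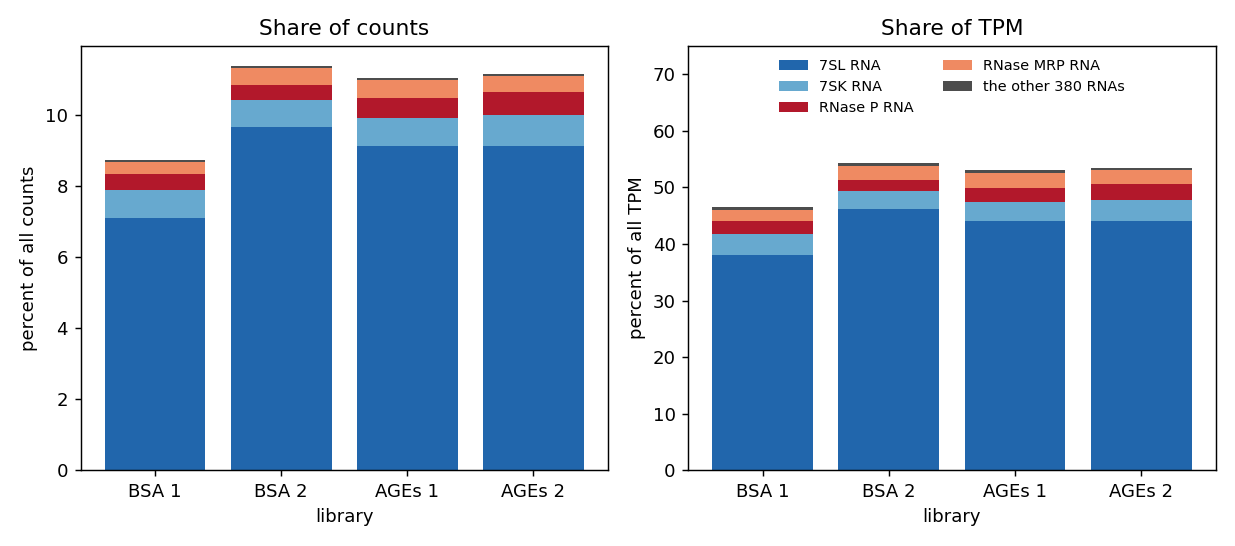
Stacked bars of the share of all counts (left, percent) and of all TPM (right, percent) taken by 7SL, 7SK, RNase P and RNase MRP RNA and by the other 380 RNAs in each of the 4 libraries. 7SL is the tallest segment throughout (7.09 to 9.65% of counts), BSA replicate 1 has the shortest bars, and the top segment of 380 RNAs is barely visible.

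For the test of single RNAs, rows with too few counts to be tested were set aside by a standard filter of edgeR. Of the 385 RNAs, 138 passed (35.8%), against 92.4% of all other rows. In the test of AGEs against BSA over 14181 genes, the study's threshold of more than 1.5-fold with an unadjusted p below 0.05 was passed by 117 genes upward (0.825%) and 134 downward (0.945%). Among the 138 RNAs, 1 was higher (Scarna2) and 0 were lower. At an unadjusted p below 0.05 without a fold limit there were 2 of the 138 (1.45%), Rpph1 and Scarna2, both higher in AGEs. Over all genes tested, 486 were higher (3.43%) and 314 lower (2.21%) at that limit. After Benjamini-Hochberg adjustment over 14181 genes, edgeR called 0 genes. DESeq2, fitted to all 15575 rows with its own adjustment, called 5, of which 1 was among these RNAs (Rpph1). The groups did not overlap for 18 of the 138 with AGEs higher and 21 with AGEs lower, where 17.7% and 17.7% of all genes tested were of these kinds. The median log2 fold change was 0.04 over the 138 RNAs and -0.003 over all genes.

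The highest library, however, was unevenly distributed. AGEs replicate 1 was highest for 50 of the 138 RNAs (36.2%) and BSA replicate 1 for 43 (31.2%). BSA replicate 2 and AGEs replicate 2 were highest for 22 (15.9%) and 23 (16.7%). The 50 included 14 U1 and 5 U3 rows, some of them identical in sequence. Over all genes the counts were 3435 (24.2%) for AGEs replicate 1, 4110 (29.0%) for BSA replicate 1, 3393 (23.9%) for BSA replicate 2 and 3243 (22.9%) for AGEs replicate 2. The median log2 fold change of the small RNAs tested was 0.26 without BSA replicate 1 and -0.29 without AGEs replicate 1. The median was -0.007 without BSA replicate 2 and 0.068 without AGEs replicate 2. That of all genes tested stayed between -0.01 and 0.01. The filter was applied anew in each such fit, so the RNAs tested were not the same set. They numbered 176 without BSA replicate 1, 190 without BSA replicate 2, 170 without AGEs replicate 1 and 178 without AGEs replicate 2. In these fits a row can pass the filter through a single library in which it is high. The group left with both libraries has more ways to admit such rows. The medians therefore cannot separate a trait of the library left out from the change of set. A group then holds a single library and its spread is not measured, so only effect sizes are given for single RNAs below. Without AGEs replicate 2, the log2 fold change was 1.10 for the summed U1 rows, 0.77 for the summed U3 rows and 1.205 for Snord17. Without AGEs replicate 1, the same values were -0.51, -0.48 and -0.67. The U1 and U3 rows are given as sums because several of them are identical copies.

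**Figure D2:**
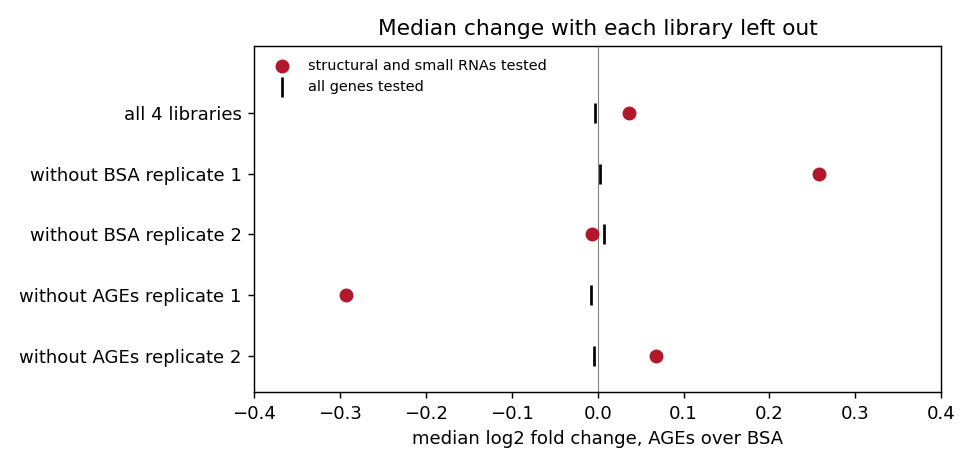
Median log2 fold change (AGEs over BSA, horizontal axis) of the structural and small RNAs tested (circles) and of all genes tested (ticks), with all 4 libraries and with each library left out in turn. The ticks stay near 0 while the circles lie between -0.29 (without AGEs replicate 1) and 0.26 (without BSA replicate 1). The RNAs tested differ between fits, from 138 with all libraries to 190 without BSA replicate 2. With a library left out, rows can enter through a single library in which they are high, which can itself move the circles.

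Where 4 values are given in a row below, they follow the order BSA replicates 1 and 2, then AGEs replicates 1 and 2. Adherent macrophages were the labelled cells, and 6 macrophage marker genes summed to between 13630 and 17244 CPM in the 4 libraries, with 0 of 6 past the threshold. Markers of T cells, neutrophils, mast cells, eosinophils and mesothelium each summed to under 10 CPM (1 of 4 T-cell, 1 of 3 neutrophil and 1 of 3 eosinophil markers had a row), B-cell markers to 39.8 to 65.8 CPM. Of 4 dendritic cell markers, 3 were lower in AGEs, with sums of 9.06 and 8.02 CPM in BSA and 4.59 and 6.26 CPM in AGEs. The 3 haemoglobin genes listed summed to 7.13, 13.2, 1.83 and 175.2 CPM, so AGEs replicate 2 stood apart. Mitochondrial ribosomal RNA left after the removal step summed to 4693, 9891, 6225 and 6817 CPM and was lowest in BSA replicate 1. The part of these differences in the results below was not tested, and in bulk RNA fewer cells of a type and less RNA per cell cannot be told apart.

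RNase P RNA had the smallest p of the 138. Rpph1 held 80279 and 96298 counts in BSA replicates 1 and 2 and 127540 and 161087 in AGEs replicates 1 and 2, or 4437, 4364, 5569 and 6632 CPM. Both BSA libraries were close to each other, and both AGEs libraries were above them. The means were 4401 ± 51.2 and 6101 ± 751.6 CPM (SD, n = 2). The log2 fold change was 0.47 with an SE of 0.10, or 1.39-fold, below the 1.5-fold limit. In edgeR's quasi-likelihood test the unadjusted p was 0.000385 and the adjusted p 0.604, so the difference did not pass adjustment over all genes, whereas DESeq2 gave an adjusted p of 0.0296.

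With each library left out, the log2 fold change ranged from 0.34 without AGEs replicate 2 to 0.59 without AGEs replicate 1, the latter past the 1.5-fold limit. Because the groups did not overlap, leaving out a library could not turn the sign. Rpph1 is rich in G and C (67.1%), and after removal of each library's trend of counts on GC content the log2 fold change was 0.19 with an unadjusted p of 0.102. On the TPM scale, where the libraries held 22263, 19133, 24509 and 29151, limma gave 0.37 on log2(TPM + 1) with an unadjusted p of 0.0882. Parp2, across the shared window printed above, was measured at 33.6 and 30.1 CPM in BSA and 26.0 and 29.6 CPM in AGEs, a log2 fold change of -0.20 (SE 0.13, unadjusted p = 0.152). The values of Rpph1 and Parp2 therefore lay on opposite sides of 0, and only that of Rpph1 had an unadjusted p below 0.05.

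7SL RNA was dominated by a single low library. Rn7s1 was at 33702 and 46097 CPM in BSA and 45760 and 46009 CPM in AGEs, and Rn7s2 at 35941 and 50803 against 46158 and 45997 CPM. For both genes BSA replicate 1 was lowest, the other 3 libraries were close together, and the groups overlapped. Because the annotated RNAs are identical, reads cannot be assigned to either gene, and their sum is the safer measure. The summed log2 fold change was 0.14 (SE 0.14, unadjusted p = 0.312). It was 0.41 without BSA replicate 2 and -0.08 without BSA replicate 1. BSA replicate 1 was also the library with the least mitochondrial ribosomal RNA; its part was not tested.

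7SK RNA was at 7766 and 7534 CPM in BSA and 7944 and 8572 CPM in AGEs. Its 4 values lay close together, without overlap of the groups, and the log2 fold change was 0.11 (SE 0.09, unadjusted p = 0.244). RNase MRP RNA, which shares most of its proteins with RNase P, was at 3272 and 4688 CPM in BSA and 5074 and 4595 CPM in AGEs. As for 7SL, BSA replicate 1 was lowest, while BSA replicate 2 fell here among the AGEs libraries (log2 fold change 0.28, SE 0.15, unadjusted p = 0.108). Without BSA replicate 2 the value was 0.57, and without BSA replicate 1 it was 0.04.

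Telomerase RNA was far less abundant, at 21 and 49 counts in BSA and 63 and 60 in AGEs, or 1.16, 2.22, 2.75 and 2.47 CPM. The groups did not overlap, with BSA replicate 1 again lowest, but the log2 fold change of 0.61 had an SE of 0.42 and an unadjusted p of 0.169. Without BSA replicate 1 it was 0.23 and without BSA replicate 2 it was 1.17.

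**Figure D3:**
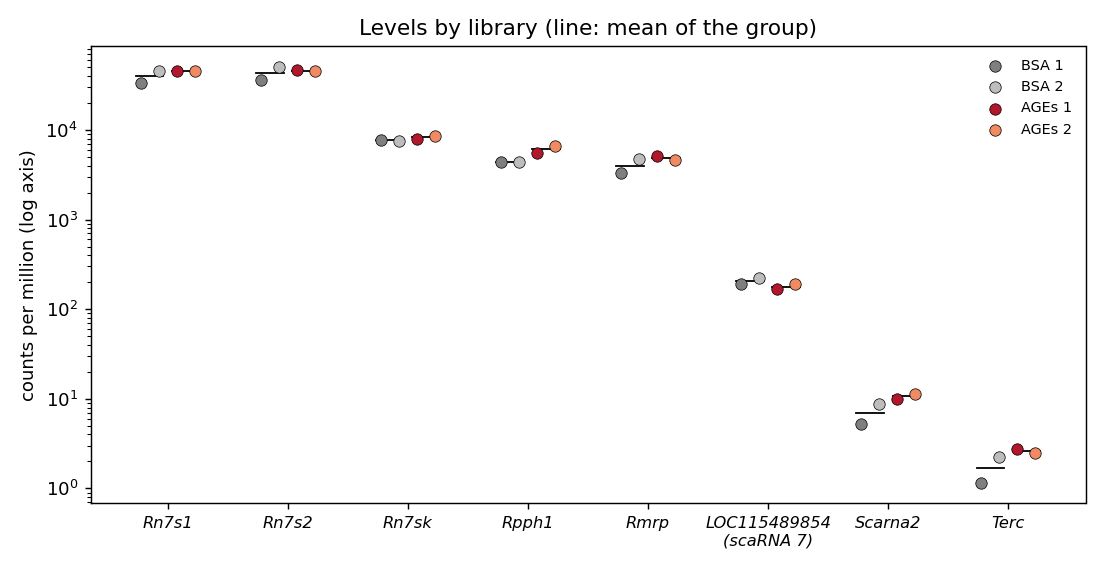
CPM (log axis) of 8 RNAs in each library, with a line at the mean of each group. Rpph1 has both AGEs libraries above both BSA libraries, whereas in Rn7s1, Rn7s2, Rmrp, Scarna2 and Terc the lowest point is BSA replicate 1.

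Spliceosomal snRNAs were recovered at low levels, although they are abundant in nuclei. The 30 U1 rows summed to 43.7 and 24.5 CPM in BSA and 72.8 and 23.8 CPM in AGEs. AGEs replicate 1 was the highest library and AGEs replicate 2 the lowest, so the groups overlapped across their whole range (log2 fold change of the sum 0.51, SE 0.85). Of the 15 U1 rows tested, 14 were highest in AGEs replicate 1. The rows are not independent: 7 of them have an identical sequence of 164 bases, including Rnu1a1, and these summed to 24.9, 14.3, 47.2 and 11.9 CPM in the same order of libraries.

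The U1 row of highest mean level, LOC115487842, had 63 and 106 counts in BSA and 322 and 54 in AGEs. AGEs replicate 1 was above the other 3 libraries and AGEs replicate 2 below them. Its log2 fold change was 0.96 (SE 1.12, unadjusted p = 0.459) with all libraries, and 1.76 without AGEs replicate 2. Without AGEs replicate 1 the value was -0.90. The exception among the U1 rows was LOC115488605, at 3.59, 3.49, 3.32 and 2.47 CPM, with a log2 fold change of -0.29 (SE 0.34, unadjusted p = 0.401).

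U2, which recognises the branch point, had another order of libraries. Its 10 rows, all tested, summed to 31.7 and 15.6 CPM in BSA and 24 and 14.1 CPM in AGEs, and 9 of the 10 were highest in BSA replicate 1. The summed log2 fold change was -0.31 (SE 0.49). The most abundant U2 row, LOC115487691, was at 10.4, 3.44, 6.90 and 3.17 CPM; replicate 1 was thus the higher library in each group. U6, the catalytic snRNA, was more even: the 51 rows, 14 of them identical, summed to 12.9, 9.93, 11.9 and 10.3 CPM, and 5 could be tested. U4 summed to 2.32, 1.77, 3.36 and 1.65 CPM.

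U5 and the snRNAs of the minor spliceosome missed the filter. The 3 U5 rows summed to 16, 20, 23 and 25 counts. U11 (Rnu11) had 10, 4, 5 and 2 counts, U12 (Rnu12) had 1, 2, 4 and 9, and U6atac (LOC115486844) had 2, 1, 5 and 4. They were not tested in the fit with the filter. Without the filter, U12 was among the 8 RNAs past the threshold upward, on a total of 16 counts.

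U3 snoRNA, like U1, was highest in AGEs replicate 1 and lowest in AGEs replicate 2. The 5 U3 rows summed to 52.7 and 53.5 CPM in BSA and 90.5 and 38.0 CPM in AGEs. The BSA libraries were alike, one AGEs library was above and the other below them, and all 5 rows were highest in AGEs replicate 1. Rnu3b1, Rnu3b2 and Rnu3b3 are identical, Rnu3b4 is 99.5% and Rnu3a 85.6% identical to Rnu3b1 in aligned positions. Rnu3a, which is on another chromosome and can be told apart by sequence, was at 6.47, 9.25, 12.8 and 5.23 CPM, in the same pattern. The summed log2 fold change was 0.27 (SE 0.58), against 0.77 without AGEs replicate 2 and -0.48 without AGEs replicate 1. For Rnu3b1, at 14.6, 15.4, 28.3 and 10.1 CPM, the corresponding values were 0.35 (SE 0.58, unadjusted p = 0.583), 0.92 and -0.57.

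Snord17, the most abundant box C/D snoRNA row, lies inside Snx5, a sorting nexin gene. It had 1299 and 1386 counts in BSA and 3550 and 1026 in AGEs, or 71.8, 62.8, 155.0 and 42.2 CPM. AGEs replicate 1 was far above and AGEs replicate 2 below both BSA libraries. The log2 fold change was 0.55 (SE 0.88, unadjusted p = 0.590), and its direction depended on 1 library: 1.21 without AGEs replicate 2 and -0.67 without AGEs replicate 1. Snx5 itself was at 574.7, 558.2, 532.7 and 546.8 CPM, with a log2 fold change of -0.07 (SE 0.08, unadjusted p = 0.401).

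The sum of the 124 box C/D rows, at 121.1, 106.1, 202.1 and 83.6 CPM, was led by Snord17. Without it the class summed to 49.3, 43.2, 47.1 and 41.3 CPM, and the AGEs libraries lay among the BSA libraries or just below them. Of the 28 box C/D rows tested, 9 had a log2 fold change above 0 and 19 below, with a median of -0.31. The smallest p values belonged to rows near the filter. Snord22, which sits in the non-coding host Snhg1, had 9 and 8 counts in BSA and 15 and 25 in AGEs (log2 fold change 0.98, SE 0.60, unadjusted p = 0.126). A SNORD83 row (LOC115488831) in Ddx39b had 15 and 12 against 9 and 7 (-0.99, SE 0.63, unadjusted p = 0.138). For both rows the groups did not overlap, but a few counts make the difference and neither passed the threshold.

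H/ACA snoRNAs were steadier. The 113 rows summed to 110.0 and 90.4 CPM in BSA and 107.7 and 87.6 CPM in AGEs, a log2 fold change of -0.04 (SE 0.12), with replicate 1 the higher in each group. Of the 49 tested, 23 were above 0 and 26 below. Snora73a, which lies in the non-coding RNA Snhg3, led the class at 19.5, 14.8, 20.1 and 16.4 CPM (log2 fold change 0.10, SE 0.18, unadjusted p = 0.612). Its neighbour Snora73b in the same host was at 9.62, 7.48, 7.77 and 5.52 CPM (-0.36, SE 0.25, unadjusted p = 0.174).

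The smallest p values in the class were again found at low counts. Snora78, in Snhg9, had 32 and 41 counts in BSA and 90 and 56 in AGEs, both AGEs libraries being higher (log2 fold change 0.78, SE 0.40, unadjusted p = 0.0715). A SNORA13 row (LOC115486823) in Ipo7 had 10 and 16 against 7 and 5, both AGEs libraries being lower (-1.32, SE 0.65, unadjusted p = 0.0655). Neither passed the threshold, and the adjusted p was 0.893 for each in edgeR.

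**Figure D4:**
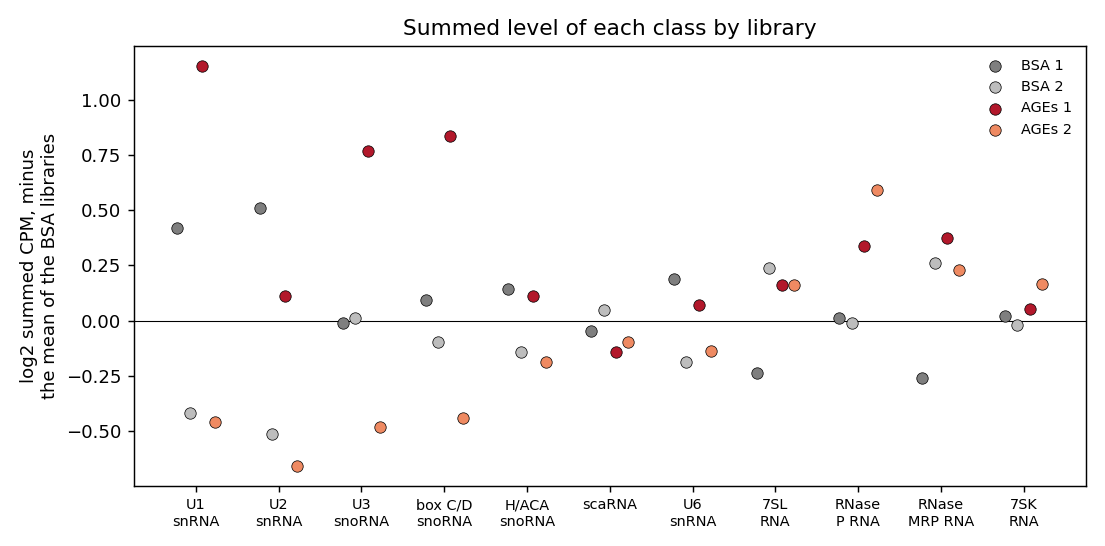
Summed level of 11 classes in each library, as log2 CPM minus the mean of the BSA libraries. U1, U3 and box C/D snoRNAs have AGEs replicate 1 on top and AGEs replicate 2 at the bottom, U2 has BSA replicate 1 on top, 7SL and RNase MRP RNA have BSA replicate 1 at the bottom, and only RNase P and 7SK RNA have both AGEs libraries above both BSA libraries.

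The scaRNAs, which guide modification of snRNAs in Cajal bodies, were the most abundant small RNAs after the leading 5. Their 22 rows summed to 300 and 320 CPM in BSA and 281.0 and 289.4 CPM in AGEs, both AGEs libraries being lower. The log2 fold change of the sum was -0.12 (SE 0.08). Most of this was the scaRNA 7 row LOC115489854 in Kpna4, a nuclear import receptor gene, at 190.0 and 224.9 CPM against 167.9 and 189.2 CPM. Its groups were separated by less than 1 CPM, with a log2 fold change of -0.22 (SE 0.10, unadjusted p = 0.0509, adjusted p = 0.879), and Kpna4 was not past the threshold.

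Scarna2 was the row past the study's threshold. It had 95 and 193 counts in BSA and 228 and 278 in AGEs, or 5.25, 8.75, 9.96 and 11.4 CPM. BSA replicate 1 was lowest, while BSA replicate 2 was near AGEs replicate 1. The log2 fold change was 0.60 (SE 0.25), or 1.52-fold, with an unadjusted p of 0.0327 and an adjusted p of 0.874 in edgeR. Without BSA replicate 1 it was 0.29, and without AGEs replicate 2 it was 0.50. With the GC trend removed it was 0.39 (unadjusted p = 0.117). The row covers 61 bases, the stretch in capitals above, and the rest of the RNA was not counted in it.

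No other scaRNA passed the threshold in edgeR with all libraries. Scarna13, in the non-coding host Snhg10, was at 30.8, 36.4, 33.0 and 38.7 CPM (log2 fold change 0.09, SE 0.13, unadjusted p = 0.504). The 2 rows described as scaRNA 6 in Atg16l1, LOC115485773 and Scarna6, were at 31.2, 18.9, 30.3 and 15.4 CPM and at 16.5, 9.16, 16.9 and 8.93 CPM. In both rows replicate 1 was the higher library in each group, as for U2. LOC115485773 had a log2 fold change of -0.13 with all libraries (edgeR, unadjusted p = 0.793). Its value was -0.70 without AGEs replicate 1 and 0.28 without AGEs replicate 2, so the sign turned. A scaRNA 4 row in Cdk14 (LOC115490274) had the largest upward value of the class, 1.12 (SE 0.64, unadjusted p = 0.105), from 8 and 5 counts in BSA and 14 and 20 in AGEs. Its groups did not overlap, and limma on log2(TPM + 1) placed it past the threshold.

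**Figure D5:**
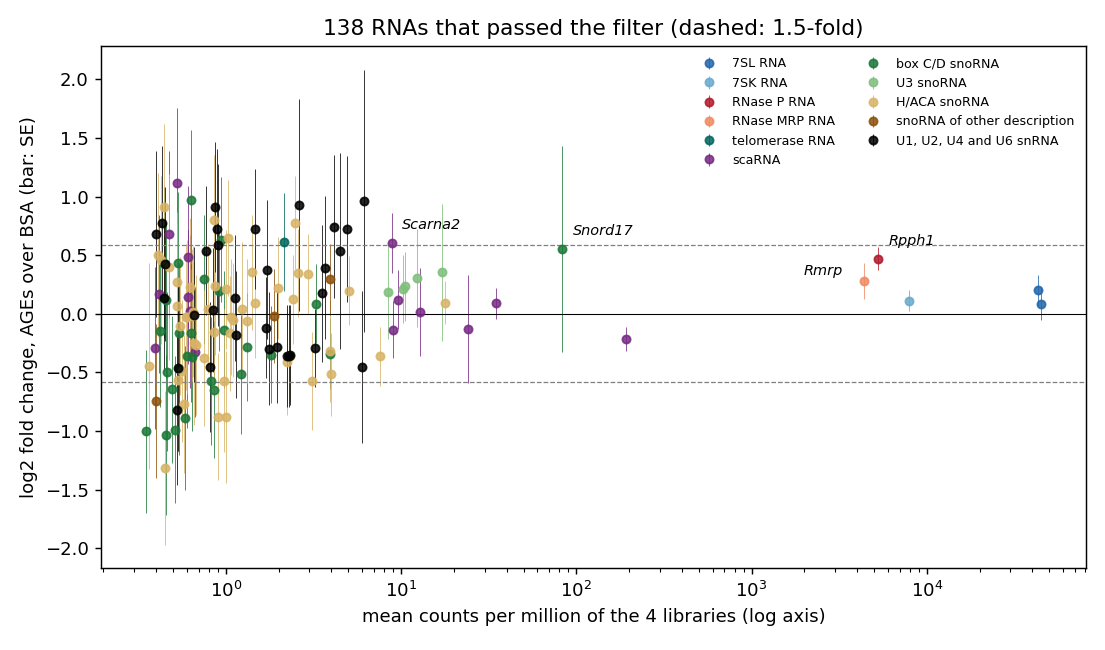
Log2 fold change (AGEs over BSA, bars show SE) against mean CPM (log axis) of the 138 RNAs tested, coloured by class, with dashed lines at 1.5-fold. Scarna2 lies at the upper dashed line, Rpph1 has a short bar below it at 0.47, Snord17 has a long bar across 0, and the widest spread is at the left, where counts are lowest.

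Most snoRNAs are cut from introns, so their host genes were examined next. Of the snoRNAs and scaRNAs, 232 lay inside another listed gene on the same strand, in 154 host genes. Reads of a snoRNA and of an unspliced host transcript cannot be told apart in such rows. Of these 154 hosts, 153 were tested, and 0 passed the threshold, which 0.825% of all genes tested passed upward and 0.945% downward. For 87 pairs in which both could be tested, the median log2 fold change was -0.06 for the snoRNAs and -0.03 for their hosts. By mean TPM, 14 of the 232 were above their host. Scarna13 was at 185.8 TPM against 1.60 for Snhg10, the scaRNA 7 row at 831.3 against 51.4 for Kpna4, Snora73a at 128.0 against 9.16 for Snhg3, and Snord17 at 552.6 against 328.8 for Snx5. Of 12 non-coding host genes tested from a list of 13, 11 had a log2 fold change below 0, with 0 past the threshold. Their median was -0.10, against -0.003 over all genes tested. The smallest unadjusted p among the 12 in edgeR was 0.108, for Snhg4 (-0.58, SE 0.34). The list did not hold every non-coding host, and those outside it lay on both sides of 0. Above 0 were Dancr (0.395), 9330159M07Rik (0.267), 2410006H16Rik (0.165), 9430037G07Rik (0.081), 1110038B12Rik (0.024), Epb41l4aos (0.021) and Zfas1 (0.001). Below 0 were Snhg10 (-0.25) and Rab26os (-0.312).

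The proteins that bind these RNAs, and the enzymes that make and mature them, were also measured. Over 121 such genes tested, 2 were past the threshold upward (1.65%, against 0.825% of all genes) and 0 downward, with a median log2 fold change of -0.04. With DESeq2 the upward count was 1, where 67 of all 15575 rows passed upward. Both counts also changed when single libraries were left out. Of the 2 genes upward, the first was Rpp38, a protein shared by RNase P and RNase MRP. It had 34 and 80 counts in BSA and 107 and 121 in AGEs. BSA replicate 1 was lowest, and the log2 fold change of 0.80 (SE 0.35, unadjusted p = 0.0401) was 0.41 without that library. The other 9 RNase P and MRP protein genes did not pass, and the list had 6 values above 0 and 4 below (median 0.03).

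The second was Gar1, a core protein of H/ACA snoRNPs and telomerase, which the study lists among genes associated with alternatively activated macrophages in these samples, so its direction is not independent of that choice. It had 32 and 51 counts in BSA and 93 and 92 in AGEs, both AGEs libraries being higher (log2 fold change 0.94, SE 0.35, unadjusted p = 0.0182). Without BSA replicate 1 it was 0.76. Its partners in the same particle did not pass: Nhp2 was at 0.20 (SE 0.17, unadjusted p = 0.254) and Dkc1, the pseudouridine synthase, at -0.11 (SE 0.23, unadjusted p = 0.657).

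Other particles showed no gene past the threshold. This held for 10 genes of the signal recognition particle and its receptor (8 below 0, median -0.11), 4 box C/D proteins (median -0.04), 30 spliceosomal snRNP proteins (median -0.03), 7 proteins of the 7SK particle and P-TEFb (median -0.04), 27 genes of RNA polymerase III and its factors (median 0.01), 7 maturation factors (median -0.05) and 14 Integrator subunits (median -0.07). Ssb, the La protein that binds new polymerase III transcripts, and Ro60 were at -0.19 (unadjusted p = 0.0611) and -0.19 (unadjusted p = 0.112). Mvp, the major vault protein, was at 106.1 and 106.9 CPM in BSA and 142.1 and 129.0 CPM in AGEs. Both AGEs libraries were higher, with a log2 fold change of 0.35 (SE 0.09, unadjusted p = 0.00186), below the 1.5-fold limit.

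The 247 RNAs that missed the filter were 96 box C/D and 64 H/ACA snoRNAs, 46 U6 and 15 U1 rows, and 26 others. Their highest count in any library was 19, and the median of their totals over the 4 libraries was 16. Together they summed to 932 and 978 counts in BSA and 1216 and 1085 in AGEs, or 51.5, 44.3, 53.1 and 44.7 CPM, so the groups overlapped. Of the 385 RNAs, 26, among them Mascrna, stood at a count of 1 in all 4 libraries. For 353 to 367 of the 385 rows per library the deposited count equalled the deposited FPKM times length, scaled to reads by a constant of each library and rounded up. FPKM is the count scaled to length and library size, and the constant was fitted to the same counts. Where that holds, a count of 1 can stand for less than 1 read, and such rows do not show that the RNA was present. The 385 rows were 28 to 397 bases long with a median of 112, and 132 were shorter than 1 sequencing read of 100 bases.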

How the data were processed

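RNA of adherent peritoneal macrophages from 4 libraries (2 given BSA, 2 given AGEs) had been prepared by the authors with ribosomal RNA removal and a stranded total RNA kit, sequenced as 100-base read pairs, aligned with HISAT2 2.1.0 to mm10 (GRCm38) and assembled with StringTie 2.1.3b, the versions being those of the submitters' processing notes. The authors deposited read counts, TPM and FPKM per gene. For 353 to 367 of the 385 RNAs the deposited counts equalled FPKM multiplied by annotated length, divided by a constant of each library and rounded up (tolerance 0.02 reads). The constant was taken from the same data, as the largest ratio of FPKM times length to count among the RNAs with at least 100 counts. Strand use in counting was not given in the sources used here. Deposited fold changes and p-values of the authors were not used. Columns not mapped to a library numbered 0.

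Groups were taken from the labels. The test on counts was that of edgeR 4.0.16, run under R 4.3.3 (scaling by TMM, filterByExpr, robust quasi-likelihood, two-sided), with Benjamini-Hochberg adjustment over the 14181 genes tested. The biological coefficient of variation was 12.9%. The call was the study's: more than 1.5-fold and an unadjusted p below 0.05. CPM are TMM-scaled, SE are on the log2 scale, and shares were compared by exact permutation tests. Alternatives were DESeq2 1.42.0, limma-voom and limma on log2(TPM + 1) with limma 3.58.1, other scalings and filters, a GC correction (loess, GC known for 379 of the 385 RNAs), a replicate block, each library left out, 7SL genes summed, FPKM shares, a fold limit of 2 and an adjusted p; sums over classes and the smallest host gene were added after seeing the data. The fits were tested on simulated data in which 200 genes with many counts were changed by a fixed fold, with the same spread for all genes. That test does not cover low counts, smaller changes or RNAs with a wider spread. All 385 RNAs matched a RefSeq gene, and 351 a GENCODE gene at the same position (reciprocal overlap of at least 0.8).

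The RNAs, gene lists and tests were chosen with earlier results of these data known. RNAs named were those past the threshold, 6 fixed RNAs, and in each class up to 6 of highest level and up to 4 of smallest p in each direction, together with hosts and up to 3 protein genes per list; the text describes part of these 59. The rule also called for the counts of each RNA that missed the filter, but the 247 concerned are summarised by class. The 7SL sequence is not reported here.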

Additional observations from a re-analysis of the deposited data

How the results depend on the processing

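Under other scalings, limma-voom, DESeq2, a minimum of 50 counts in 2 libraries and 7SL summed, 1 of these RNAs (Scarna2) stayed past the threshold upward and 0 downward. The number upward was 8 of 385 with no filter (all genes: 151 of 15575) and 3 of 138 with the replicate block (131 of 14181). It was 6 of 138 with limma on log2(TPM + 1) (57 of 14181) and 0 of 138 with the GC correction (84 of 13191). With a fold limit of 2 it was 0, and with an adjusted p below 0.05 it was 0. The number downward was 4 of 385 with no filter (all genes: 162 of 15575) and 11 of 138 with limma on log2(TPM + 1) (144 of 14181). Both numbers also changed when single libraries were left out. Of the 12 upward without AGEs replicate 2, Scarna2 was not one. Snord17 ranged from -0.67 without AGEs replicate 1 to 1.205 without AGEs replicate 2. The 59 named RNAs gave 978 values under the alternatives, of which 51 had the other sign. The causes were not tested.

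The replicate numbers of the labels do not state a shared origin, so the libraries were not treated as pairs in the main fit. Same-numbered libraries deviated together little over 14181 genes (r = 0.0284) and more over the 138 RNAs (r = 0.282). For class sums in edgeR, the block changed the unadjusted p from 0.608 to 0.0547 for U1 and from 0.571 to 0.0761 for U2. For U3 it went from 0.677 to 0.816. The log2 fold changes with the block were 0.365, -0.278 and 0.151. The replicate block added 2 U1 rows, LOC115488051 and LOC115488077, to Scarna2. With the GC correction and the replicate block together, 1 RNA was upward (LOC115488077) and 0 downward.

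The difference in the share of counts (1.05 percentage points, AGEs minus BSA) ranged from -0.271 to 2.36 with each library left out, that of TPM (2.86) from -0.967 to 6.69, and that of 7SL counts (0.754) from -0.528 to 2.04. The sign turned in each case without BSA replicate 1. Short and identical RNAs are measured less surely than their counts alone imply, since 132 of the 385 are shorter than a read and a read from identical copies has no single origin. With 2 libraries per group, RNAs near the filter cannot show differences smaller than their own spread.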
